A study of Mus musculus with 9 samples.

Results

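Fragments of valine transfer RNAs (tRNAs) were followed in mouse blood serum at week 20. A read was taken as a valine fragment when every alignment it had was to mature nuclear references of Val-AAC, Val-CAC, Val-TAC or Gly-ACC, each name giving the amino acid and the anticodon. These 4 families, of 50 nuclear families with reads on mature references, gave 21743 of 555585 tRNA reads, or 3.91%, and 1845 of 41240 distinct read sequences. Gly-ACC belongs with them because its reference shares both ends with those of Val-AAC and Val-CAC, and only 10 reads aligned to Gly-ACC alone. Another 360 reads that met a valine reference and some other tRNA as well were left out. The study had 3 groups of 3 serum libraries: mice on a high fat diet with SalB (salvianolic acid B, a phenolic compound of the herb Salvia miltiorrhiza), mice on the high fat diet alone, and mice on a normal diet. Titles of the normal diet libraries name a C57 strain; for the remaining groups no strain is stated in the sources used here, so diet and strain cannot be told apart in either comparison with normal diet. Nothing in the labels ties the replicates to separate animals, and p-values therefore measure the spread between these libraries, which may be technical. In serum, fewer releasing cells and less fragment released per cell cannot be told apart.

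Valine tRNAs carry valine to the ribosome. Cells and extracellular enzymes cut tRNAs into fragments: angiogenin, a secreted ribonuclease, cuts in the anticodon loop and leaves long 5′ and 3′ fragments, while shorter pieces end in the D loop or begin in the T loop. All mature tRNAs end in CCA, which is not encoded in mammalian tRNA genes but is added by a nucleotidyltransferase. In the archaeon Haloferax volcanii, a 5′ fragment of a valine tRNA is known to bind the small ribosomal subunit. Tail, anticodon and both ends can be read directly from the sequences, which are shown because the results turn on where a read starts and stops.

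A reference of each valine anticodon, the most read of its family, was rebuilt from the deposited reads and their recorded mismatches, and each is printed 5′ to 3′ with the anticodon (bases 34 to 36) and the CCA tail in capitals.
Val-AAC-1-1: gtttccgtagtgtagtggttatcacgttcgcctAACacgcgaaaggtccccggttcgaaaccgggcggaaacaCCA
Val-CAC-2-1: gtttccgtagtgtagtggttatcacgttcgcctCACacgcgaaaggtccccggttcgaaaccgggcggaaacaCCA
Val-TAC-1-1: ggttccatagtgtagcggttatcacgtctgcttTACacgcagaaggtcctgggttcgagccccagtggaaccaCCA
The references are 76 bases long. Val-AAC-1-1 differs from Val-CAC-2-1 by the single substitution C34A, in the anticodon, and Val-TAC-1-1 differs from it at 17 bases and is 77.6% identical. Most reads therefore cannot be split between families: 60.9% aligned to Gly-ACC, Val-AAC and Val-CAC alike, and 28.5% to Val-AAC and Val-CAC. Val-TAC alone took 5.71% of the reads, Val-CAC alone 3.36% and Val-AAC alone 1.2%. Val-AAC reads with G at base 34, described below, mismatch both references there. Such reads can fall in the class of Val-AAC and Val-CAC, as fragment 32 to 54 with A34G did. The share of Val-AAC alone then leaves them out.

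RefSeq's annotation of GRCm38.p6, the assembly behind the mm10 build that the submitters name, lists 22 nuclear valine tRNA genes. There are 8 for Val-AAC, 11 for Val-CAC and 3 for Val-TAC, and 10 of them lie on chromosome 13. On chromosome 11 the Gly-ACC gene n-TGacc1 (chr11:48823728-48823801) has Val-CAC gene n-TVcac7 (chr11:48818542-48818614) and Val-AAC gene n-TVaac7 (chr11:48856637-48856709) as neighbours. No fragment described here can be placed on a single gene.

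The fragments on which the results turn are the following, with the first and last base on the references above and any base that differs from the reference in capitals. Positions count from 1 at the 5′ end.
5′ fragment 1 to 15: gtttccgtagtgtag
5′ fragment 1 to 15 with G15A: gtttccgtagtgtaA
5′ fragment 1 to 23: gtttccgtagtgtagtggttatc
5′ fragment 1 to 32: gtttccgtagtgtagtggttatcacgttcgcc
Trimmed fragment 2 to 32: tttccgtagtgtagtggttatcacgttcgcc
Trimmed fragment 3 to 32: ttccgtagtgtagtggttatcacgttcgcc
Trimmed fragment 5 to 32: ccgtagtgtagtggttatcacgttcgcc
3′ fragment 60 to 76: accgggcggaaacacca
3′ fragment 60 to 76 with A60C: Cccgggcggaaacacca
Fragment 60 to 73, without CCA: accgggcggaaaca
Fragment 59 to 73, without CCA: aaccgggcggaaaca
Internal fragment 32 to 54 with A34G: ctGacacgcgaaaggtccccggt
Val-TAC fragment 1 to 15: ggttccatagtgtag

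The 9 libraries held 28191 to 156333 tRNA reads, of which 735 to 5324 were valine reads. Valine reads made up 2.98%, 3.41% and 1.83% of tRNA reads in the SalB libraries, against 4.93%, 4.68% and 4.56% in the high fat diet libraries. The normal diet libraries had 3.99%, 5.24% and 4.65%. SalB libraries were thus all below the others, but this share depends on the rest of the library: reads of a single Leu-CAG precursor filled 42.0% of SalB replicate 2, and without them its valine share was 5.88%, against 3.06% and 1.83% in SalB replicates 1 and 3. SalB replicate 2 stands apart in other ways described below. Levels are given as normalised CPM, counts per 1e6 tRNA reads after trimmed-mean scaling, and 1 read was worth 9.09 to 28.97 normalised CPM depending on the library.

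Valine reads piled up on the ends of the tRNA. Fragments that reach the CCA tail (3′) made up 47.2% of all valine reads, fragments that start at the first base (5′) 32.5% and those doing neither (internal) 20.3%. Short reads of 14 to 24 bases were 88.2% of the total and those of 28 to 36 bases 9.70%. The share of 5′ reads was 13.5%, 51.6% and 20.8% in the SalB libraries and 33.6%, 28.1% and 35.5% in the high fat diet libraries. It was 21.1%, 23.8% and 26.4% in the normal diet libraries, all below the high fat diet ones. The 3′ share was 63.5%, 35.4% and 35.9% with SalB, 38.0%, 50.2% and 39.98% on the high fat diet and 54.9%, 58.2% and 57.5% on the normal diet. The high fat diet libraries were below those of the normal diet in this share, and the SalB libraries spread across both. In an exact two-sided permutation test 3 libraries against 3 cannot go below p = 0.1, and over the 63 comparisons made on 21 such shares the smallest adjusted p was 0.42, so the shares are values without a call.

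**Figure D1:**
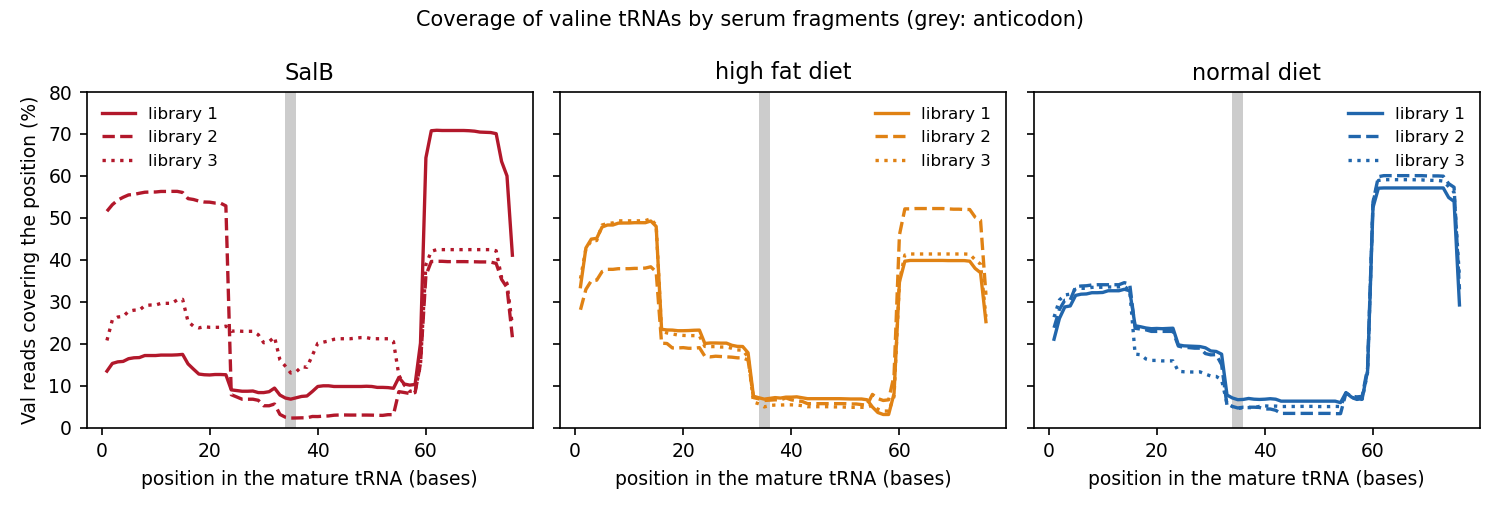
Percent of valine reads that cover each base of the mature tRNA, counted from the 5′ end, with 1 line per library and 1 panel per group; grey marks the anticodon. In the high fat diet and normal diet libraries coverage drops after base 15 and again after base 32, whereas SalB replicate 2 stays above 50% up to base 23.

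**Figure D2:**
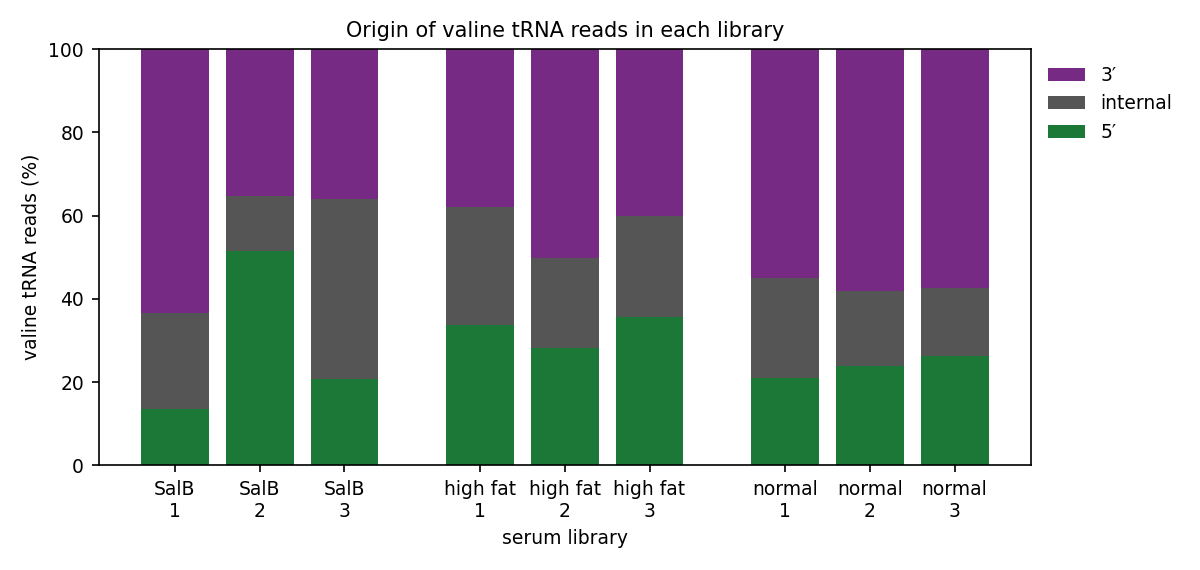
Stacked bars give the percent of valine reads in each serum library that are 5′, internal or 3′ fragments. The 5′ share runs from 13.5% to 51.6% within SalB, wider than the 28.1% to 35.5% of the high fat diet group.

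SalB against high fat diet asks how serum fragments differ when the compound is given on top of the diet. Of 4 short 5′ fragments that stop in the D loop at base 14 or 15, the 3 shared by Gly-ACC, Val-AAC and Val-CAC were called 4.94-fold to 5.57-fold lower with SalB, while that of Val-TAC was 2.53-fold lower and not called (adjusted p = 0.0504). Another 3 long fragments, which end at base 32 and lack the first bases, had 3 or 4 reads over all SalB libraries, against 40 to 57 over the high fat diet libraries. The most abundant 3′ fragment showed no call. Only a pair of tested fragments was called higher, both ending at base 73, just before the CCA tail. Of 1845 valine sequences, 35 passed the filter on low counts (10 reads at the median depth of 44415 in at least 3 libraries, and 15 reads in all), and these held 67.4% of the valine reads. In 10 of the 35 no SalB library reached that minimum, so that these passed through the diet groups alone. In the limma-voom fit over all 733 fragments, 2 of these 35 were called higher (5.71%), where 18.4% of all fragments tested were, and 8 were called lower (22.9%), where 15% of all were. The other 25 were not called at an adjusted p under 0.05. The median log2 fold change was -0.33 over the 35 and -0.07 over all 733. Scaling to total tRNA reads lowers the median of all fragments by 0.93 on the log2 scale. It gave 0 valine fragments higher and 14 lower, and 1 higher and 13 lower once the Leu-CAG precursor reads were taken out of the total. Over all 733 fragments, 325 and 302 were called in either direction under the same scalings. Of the 10 calls, 8 and 9 remained under these scalings.

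The fragment of bases 1 to 15, which ends in the D loop, had 58, 73 and 41 reads in the SalB libraries. In the high fat diet libraries it had 430, 167 and 338 reads, and in the normal diet libraries 125, 139 and 546. As normalised CPM these were 1053, 1237 and 1050 with SalB and 6274, 4838 and 6148 on the high fat diet, with 2349, 3914 and 4965 on the normal diet. All SalB libraries were below all others, and within SalB the values were close together. The log2 fold change against high fat diet was -2.36 ± 0.32 (SE, 3 libraries each), a 5.14-fold lower level (limma-voom, adjusted p = 0.000585), and the call held in all 18 alternatives run. Its variant G15A had 272, 254 and 128 normalised CPM with SalB, against 1240, 782 and 1437 on the high fat diet. That difference was -2.31 ± 0.42 on the log2 scale (adjusted p = 0.00265). The variant made up 20.3%, 15.6% and 11.5% of the 5′ reads ending at base 15 in the SalB libraries and 14.4%, 12.7% and 16.7% in the high fat diet libraries, and the groups overlapped in this share. In the normal diet libraries its share was 9.32%, 11.2% and 6.71%, below all others.

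Neighbouring forms gave like values. The fragment 1 to 14, shorter by a base, had 36.3, 102 and 128 normalised CPM with SalB, against 467, 435 and 491 on the high fat diet (log2 fold change -2.48 ± 0.55, adjusted p = 0.00717). Fragment 2 to 15, which lacks the first base, had 90.8, 288 and 512 normalised CPM with SalB and 1561, 608 and 982 on the high fat diet (-2.12 ± 0.59, adjusted p = 0.0193). Its call ended without SalB replicate 1 (-1.36, adjusted p = 0.0984) and without high fat diet replicate 1 (-1.88, adjusted p = 0.0619), with adjusted p from 4.4e-05 to 0.0984 over its alternatives. By contrast the fragment 1 to 17, which runs further into the D loop, had 272, 220 and 76.8 normalised CPM with SalB, against 87.5, 377 and 127 on the high fat diet. The groups overlapped there (0.47 ± 0.67, adjusted p = 0.599). Val-TAC, with a different 5′ sequence, had its own 15-base 5′ fragment at 72.6, 102 and 179 normalised CPM with SalB, against 263, 348 and 255 on the high fat diet. This difference of -1.34 ± 0.48 lay just outside the threshold (adjusted p = 0.0504). It passed in 7 of 18 alternatives, among them without normal diet replicate 3 (-1.43, adjusted p = 0.0362, with a range over all of 0.00367 to 0.155). For this fragment and for fragment 1 to 14 no SalB library reached the minimum of the filter. Both entered the test through the diet groups alone.

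**Figure D3:**
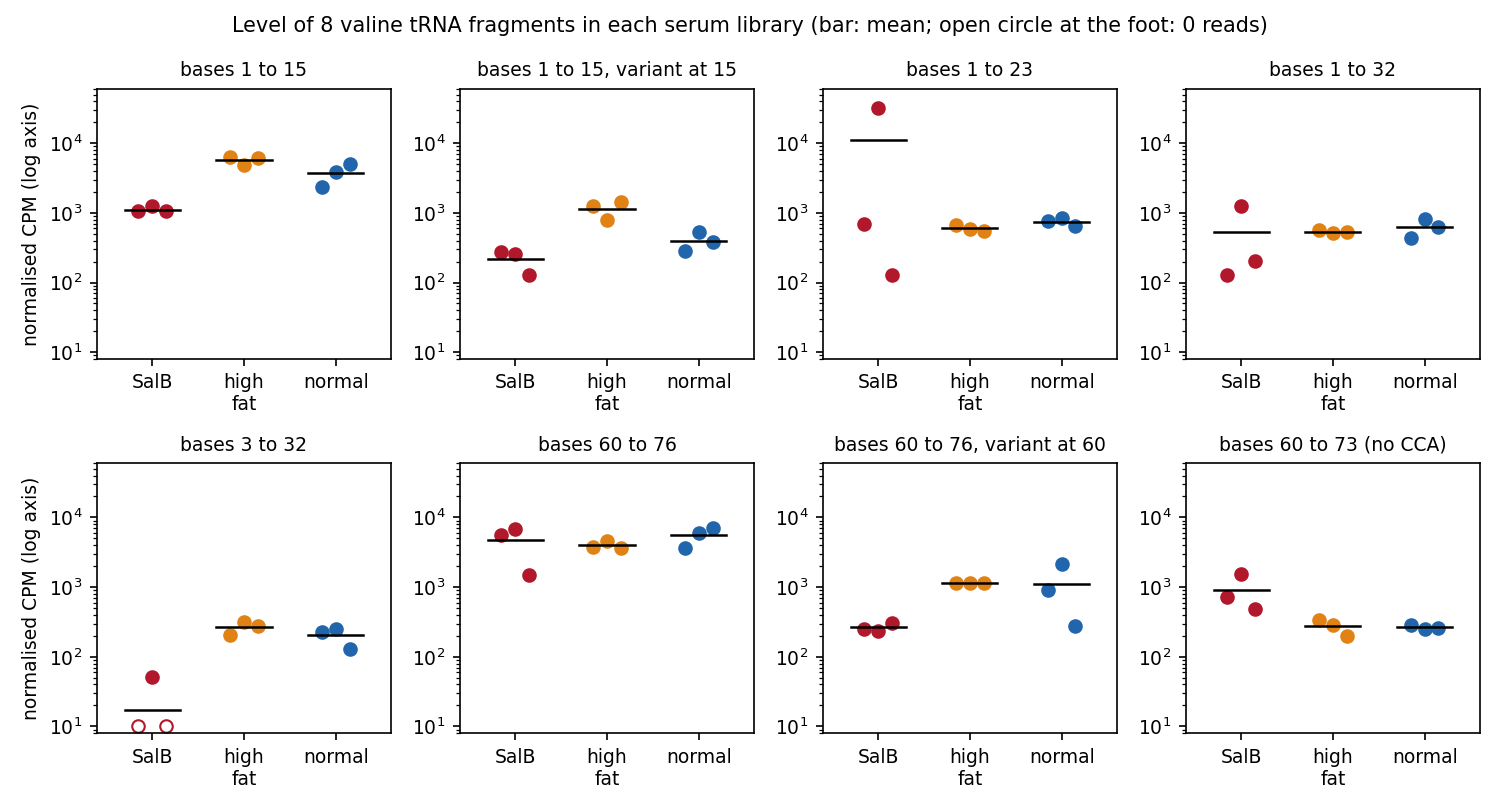
Normalised CPM (log axis) of 8 valine fragments named by their bases, 1 point per serum library and a bar at the group mean; open circles mark libraries with 0 reads. The SalB libraries sit at 1050 to 1237 for bases 1 to 15, below the 4838 to 6274 of the high fat diet, while for bases 60 to 76 the groups overlap.

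Summed over all 5′ reads shared by Gly-ACC, Val-AAC and Val-CAC, levels were 2378, 2829 and 1690 normalised CPM with SalB, 9382, 7300 and 9659 on the high fat diet and 3476, 5378 and 6766 on the normal diet. The log2 fold change of SalB against high fat diet was -1.96 ± 0.30 (adjusted p = 0.00234), and no alternative ended this call. Of 13 valine sums of a family set and an origin, no other was called lower, and over all tRNAs 6.63% of 166 sums were. Among the 9 tested valine 5′ fragments 0 were called higher and 3 lower, with a median log2 fold change of -1.34, where over all 733 fragments 18.4% were called higher and 15% lower with a median of -0.07. Of these 9, the fragments 1 to 14, 1 to 31, 1 to 32 with C32T and Val-TAC 1 to 15 passed the filter through the diet groups alone. The median is the value of Val-TAC 1 to 15, so counts and median are set in part by the filter. Several of the 9 are also forms of 1 fragment with other ends. For 5′ fragments of other tRNAs known in serum (Gly-GCC, Gly-CCC, Glu-CTC, Glu-TTC, Lys-CTT, His-GTG and Asp-GTC) the counts were 23 higher and 8 lower of 105, with a median of 0.36. These are descriptions, and the difference between the lists was not tested.

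Long fragments that keep the first base were not called. The fragment 1 to 32, which stops in the anticodon loop, had 127, 1237 and 205 normalised CPM with SalB, 569, 521 and 528 on the high fat diet and 432, 817 and 618 on the normal diet. SalB replicate 2 was the highest of all libraries and SalB replicates 1 and 3 the lowest. No call was made (-0.67 ± 0.66, adjusted p = 0.442), but without SalB replicate 2 the fragment was called lower (-1.70, adjusted p = 0.0287; the range over its alternatives was 0.0287 to 0.974). Its variant C32T had 127, 169 and 102 normalised CPM with SalB, against 321, 290 and 200 on the high fat diet (-0.92 ± 0.49, adjusted p = 0.165), and the fragment 1 to 31 had 36.3, 50.8 and 25.6 against 233, 261 and 90.9 (-1.94 ± 0.82, adjusted p = 0.0848). The last was called in 6 of 13 alternatives, among them without high fat diet replicate 3 (-2.44, adjusted p = 0.0446, with a range over alternatives of 0.00989 to 0.135).

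Forms of this fragment trimmed at the 5′ end had few reads with SalB. Fragment 2 to 32 had 1, 3 and 0 reads in the SalB libraries, against 25, 6 and 13 in the high fat diet libraries and 19, 14 and 31 in the normal diet libraries. Fragment 3 to 32 had 0, 3 and 0 reads with SalB, against 14, 11 and 15 on the high fat diet and 12, 9 and 14 on the normal diet. Fragment 5 to 32 had 0, 1 and 3 reads with SalB, against 23, 5 and 29 on the high fat diet and 8, 14 and 24 on the normal diet. In each case all SalB libraries lay below all others after scaling. Against high fat diet the log2 fold changes were -3.32 ± 0.70 (adjusted p = 0.00578) for 2 to 32, -3.78 ± 0.76 (adjusted p = 0.00458) for 3 to 32 and -3.60 ± 0.92 (adjusted p = 0.0126) for 5 to 32. With so few SalB reads these sizes are loose, and all 3 fragments passed the filter on low counts through the diet groups alone. So did the 5′ fragments 1 to 14, 1 to 31, 1 to 32 with C32T and Val-TAC 1 to 15. The same held for fragments 16 to 32, 60 to 75 with A60C and 61 to 75 with C75T. The 3 reads of fragment 3 to 32 over all SalB libraries, against 40 on the high fat diet, give a 12.9-fold lower ratio with a 95% counting interval of 4.12-fold to 65.3-fold. This interval leaves out the spread between libraries, and all 3 SalB reads came from SalB replicate 2. Leaving out that library moved the log2 fold change of 3 to 32 to -4.57. Without SalB replicate 3 fragment 2 to 32 moved to -2.71 and 5 to 32 to -4.39. The call of 5 to 32 ended without SalB replicate 1 (-2.75, adjusted p = 0.0612, with a range over alternatives of 1.8e-07 to 0.0612).

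The sum of all internal valine reads of 28 to 36 bases, which holds these trimmed forms, was 436, 474 and 487 normalised CPM with SalB, 2962, 2462 and 2619 on the high fat diet and 2480, 3379 and 1619 on the normal diet. The SalB libraries were close to each other, including replicate 2. The log2 fold change against high fat diet was -2.51 ± 0.33 (adjusted p = 0.00107) and stayed between -3.50 and -2.42 in the alternatives, all of them called. No other of the 7 valine length sums was called lower and 0 were called higher, while 7.79% and 25.3% of the 154 length sums over all tRNAs were called lower and higher. The 5′ reads of the same length, which keep the first base, were at 1017, 3930 and 1613 normalised CPM with SalB, against 2437, 1912 and 2074 on the high fat diet (-0.19 ± 0.46, adjusted p = 0.742).

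A ratio within each library shows the same contrast without any scaling between libraries. Of the Val-AAC and Val-CAC reads that start at bases 1 to 5 and end at bases 29 to 36, those starting at base 1 made up 78.6%, 90.5% and 78.9% in the SalB libraries. The share was 44.3%, 45.1% and 42.0% in the high fat diet libraries and 42.5%, 49.8% and 58.7% in the normal diet libraries. All SalB libraries were above all others. The smallest base of reads was 70, in SalB replicate 1, where the 95% Wilson interval ran from 67.6% to 86.6%; such intervals cover counting error only. This measure was chosen after its values were seen and carries no test.

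**Figure D4:**
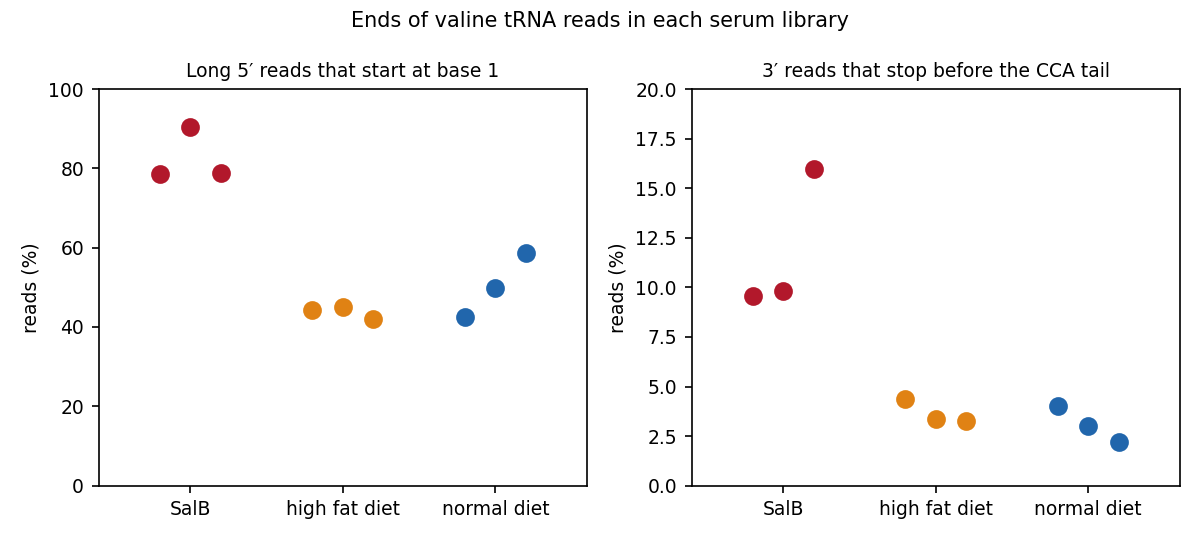
Percent of reads in each serum library, 1 point per library. Left, Val-AAC and Val-CAC reads of bases 1 to 5 through 29 to 36 that start at base 1, at 78.6% to 90.5% with SalB and 42.0% to 58.7% elsewhere; right, valine reads starting at bases 55 to 61 and ending at base 73 or later that stop at base 73, at 9.56% to 16.0% with SalB and 2.18% to 4.35% elsewhere.

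The fragment 1 to 23, which ends in the D arm, was the second most abundant valine sequence, through SalB replicate 2. It had 38, 1913 and 5 reads in the SalB libraries, 46, 20 and 30 in the high fat diet libraries and 40, 30 and 72 in the normal diet libraries. As normalised CPM the SalB libraries held 690, 32408 and 128, against 546 to 671 on the high fat diet and 655 to 845 on the normal diet. SalB replicate 1 thus lay among the other groups and SalB replicate 3 below them, and no call was made (1.32 ± 1.47, adjusted p = 0.498). Reads ending at base 23 were 20.7%, 81.0% and 6.54% of the 5′ reads with SalB, 6.85%, 6.74% and 5.56% on the high fat diet and 14.6%, 12.1% and 8.02% on the normal diet. Reads ending at base 15 were 33.1%, 3.75% and 39.2% of the 5′ reads with SalB, 66.3%, 60.6% and 67.9% on the high fat diet and 47.5%, 46.4% and 57.2% on the normal diet, so the groups did not overlap in that share. The sum of short 5′ reads (14 to 24 bases) was accordingly split. It was 3449, 42030 and 2253 normalised CPM with SalB and 10870, 8662 and 10932 on the high fat diet (-0.52 ± 0.86, adjusted p = 0.623), and called lower without SalB replicate 2 (-1.82, adjusted p = 0.000968, where its alternatives ran up to 0.966).

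The 5′ sum of Val-AAC and Val-CAC, at 1834, 42674 and 1408 normalised CPM with SalB, 3122, 2462 and 2419 on the high fat diet and 2593, 4167 and 2737 on the normal diet, was the most abundant valine 5′ sum in reads pooled over all libraries (0.86 ± 1.04, adjusted p = 0.541). It held that place through SalB replicate 2, since in the other 8 libraries the 5′ sum shared with Gly-ACC was higher. Of 153 sums from other tRNAs, those most like it over the 9 libraries, by the root mean square difference of centred log2 levels, were Ser-AGA precursor bodies (0.53), 5′ reads of Ser-AGA and Ser-TGA (0.55) and His-GTG precursor bodies (0.75). Thr-TGT 3′ reads and 3′ reads of Leu-CAA and Leu-CAG followed at 0.77 each, where the median over the 153 was 1.34. The sums compared share the libraries, their depth and their scaling.

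Pooled over all libraries the most abundant valine fragment was the 3′ fragment 60 to 76, which starts in the T loop and carries the whole CCA tail. It had 313, 404 and 58 reads in the SalB libraries, 261, 161 and 203 in the high fat diet libraries and 191, 212 and 780 in the normal diet libraries. After scaling these were 5682, 6844 and 1485 normalised CPM with SalB and 3808, 4664 and 3693 on the high fat diet, with 3589, 5970 and 7093 on the normal diet. SalB replicate 3 was the lowest library and SalB replicates 1 and 2 lay above the high fat diet, with a log2 fold change of -0.01 ± 0.50 (adjusted p = 0.984). This error is wide enough to hold a change in either direction. The 22-base Val-TAC 3′ fragment 55 to 76 (tcgagccccagtggaaccacca), the most abundant of that family, had 363, 1118 and 358 normalised CPM with SalB, against 379, 840 and 600.3 on the high fat diet (-0.07 ± 0.47, adjusted p = 0.911). In the 3 high fat diet libraries the 5′ fragment 1 to 15 had more reads than the fragment 60 to 76, and in SalB replicate 2 the fragment 1 to 23 did. Of 17 tested 3′ fragments 0 were called higher and 1 lower, where 18.4% and 15% of all 733 fragments were.

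Other 3′ fragments spread in the same manner, with SalB replicate 3 low. Fragment 60 to 75, which ends in CC, had 1525, 3846 and 640 normalised CPM with SalB, against 1736, 2057 and 1637 on the high fat diet (-0.19 ± 0.51, adjusted p = 0.785). Its variant C75T had 1707, 1355 and 410 against 730, 1333 and 618 (0.28 ± 0.49, adjusted p = 0.664). Fragment 59 to 76 had 962, 2456 and 358 normalised CPM with SalB, against 817, 840 and 418 on the high fat diet (0.57 ± 0.60, adjusted p = 0.468), and 61 to 76 had 1107, 1474 and 307 against 963, 1072 and 1091 (-0.33 ± 0.51, adjusted p = 0.626). The 22-base fragment 55 to 76 had 654, 1355 and 179 normalised CPM with SalB, against 263, 435 and 236 on the high fat diet (0.96 ± 0.61, adjusted p = 0.235). Without SalB replicate 3 it was called higher (1.76, adjusted p = 0.0093; alternatives ran up to 0.892). Likewise the 3′ sum of Gly-ACC, Val-AAC and Val-CAC was 20188, 27884 and 5480 normalised CPM with SalB and 13672, 16686 and 13206 on the high fat diet (0.08 ± 0.50, adjusted p = 0.911). It was called higher without SalB replicate 3 (0.81, adjusted p = 0.0303, the lowest of its alternatives, the highest being 0.997).

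A form of the main 3′ fragment with A60C, a different first base, was called lower with SalB in the main fit. It had 14, 14 and 12 reads in the SalB libraries, 78, 39 and 63 in the high fat diet libraries and 48, 77 and 30 in the normal diet libraries. In normalised CPM these were 254, 237 and 307 with SalB, 1138, 1130 and 1146 on the high fat diet and 902, 2168 and 273 on the normal diet. All SalB libraries lay below the high fat diet, while normal diet replicate 3 lay among them. The log2 fold change against high fat diet was -2.09 ± 0.64 (adjusted p = 0.0275). This call ended when SalB replicate 1 (-2.03, adjusted p = 0.0751), SalB replicate 2 (-1.95, adjusted p = 0.057), high fat diet replicate 1 (-2.19, adjusted p = 0.0598) or high fat diet replicate 3 (-2.10, adjusted p = 0.0661) was left out, and ranged from 1.8e-05 to 0.0751 over all its alternatives. Among 3′ reads that start at base 60, those with C as that base were 1.80%, 2.28% and 11.5% with SalB, 15.5%, 14.02% and 17.7% on the high fat diet and 15.9%, 22.7% and 2.80% on the normal diet. The 3 lowest values were those of the 3 deepest libraries (SalB replicates 1 and 2 and normal diet replicate 3), and the part of depth in this difference was not tested. Reads starting there lie just behind base 58, which in many tRNAs carries 1-methyladenosine, a modification that hinders reverse transcription. Bases other than A at position 58 were 0.532%, 2.33% and 0% of the reads holding it inside with SalB, against 2.30%, 2.33% and 6.17% on the high fat diet. On the normal diet they were 1.74%, 2.5% and 2.06%. A link between base 58 and the reads starting at base 60 was not tested. The 16-base form with A60C (60 to 75) had 0, 4 and 4 reads with SalB and 25, 15 and 26 on the high fat diet and was not called (-3.32 ± 1.45, adjusted p = 0.0954). It passed in 7 of 16 alternatives, among them without normal diet replicate 3 (-3.40, adjusted p = 0.0108, with a range over alternatives of 2.5e-07 to 0.27).

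Of the tested valine fragments, only 60 to 73 and 59 to 73, which stop at the last base before the CCA tail, were called higher. Fragment 60 to 73 had 40, 90 and 19 reads in the SalB libraries, 23, 10 and 11 in the high fat diet libraries and 15, 9 and 28 in the normal diet libraries. These were 726, 1525 and 487 normalised CPM with SalB, against 336, 290 and 200 on the high fat diet and 282, 253 and 255 on the normal diet. Fragment 59 to 73 had 654, 915 and 256 normalised CPM with SalB, against 146, 145 and 90.9 on the high fat diet and 150, 225 and 127 on the normal diet. For both, all SalB libraries were above all others. Against high fat diet the log2 fold changes were 1.59 ± 0.45 (3.01-fold, adjusted p = 0.0196) and 2.07 ± 0.59 (4.19-fold, adjusted p = 0.0208). Fragment 60 to 74 had 1.65 ± 0.90 and was not called (adjusted p = 0.174). The sum of 3′ reads of 37 to 40 bases did not pass the filter and was not tested. It had 11, 13 and 11 reads with SalB, 1, 2 and 1 on the high fat diet and 4, 1 and 8 on the normal diet. After scaling all SalB libraries were above all others in this sum.

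Fragment 59 to 73 reached the minimum level of the filter in 3 SalB libraries, 0 high fat diet libraries and 1 normal diet library, so it entered the test through the group where it was high. Both calls rest on the scaling and on each high fat diet library. With scaling to total tRNA reads fragment 60 to 73 had a log2 fold change of 0.73 (adjusted p = 0.244) and fragment 59 to 73 of 1.204 (adjusted p = 0.121). With the Leu-CAG precursor reads taken out of the total, 60 to 73 was still not called (1.02, adjusted p = 0.0591). Nor was it with no filter (1.32, adjusted p = 0.0967). Without high fat diet replicates 1, 2 and 3 in turn, 60 to 73 gave 1.70, 1.51 and 1.35 (adjusted p = 0.0539, 0.0518 and 0.0813) and 59 to 73 gave 2.11, 2.02 and 1.83 (adjusted p = 0.0868, 0.0584 and 0.0765). Over all alternatives adjusted p ran from 0.00544 to 0.244 for 60 to 73 and from 0.00262 to 0.121 for 59 to 73. A share within each library does not depend on scaling: of valine reads that start at bases 55 to 61 and reach base 73 or further, 9.56%, 9.81% and 16.0% stopped at base 73 in the SalB libraries. In the high fat diet libraries 4.35%, 3.37% and 3.25% did, and in the normal diet libraries 4.004%, 2.99% and 2.18%. Stops at base 74 followed the same order, with 4.97%, 5.08% and 3.401% with SalB, 2.59%, 1.47% and 2.41% on the high fat diet and 1.64%, 1.44% and 2.26% on the normal diet. Full CCA ends made up 58.3%, 54.6% and 55.4% with SalB and 63.6%, 60.9% and 63.9% on the high fat diet. On the normal diet they made up 51.0%, 54.9% and 60.8%, where stops at base 75 were the most frequent of all groups (43.3%, 40.6% and 34.8%, against 29.4%, 34.3% and 30.4% on the high fat diet). These shares, too, were chosen after their values were seen.

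**Figure D5:**
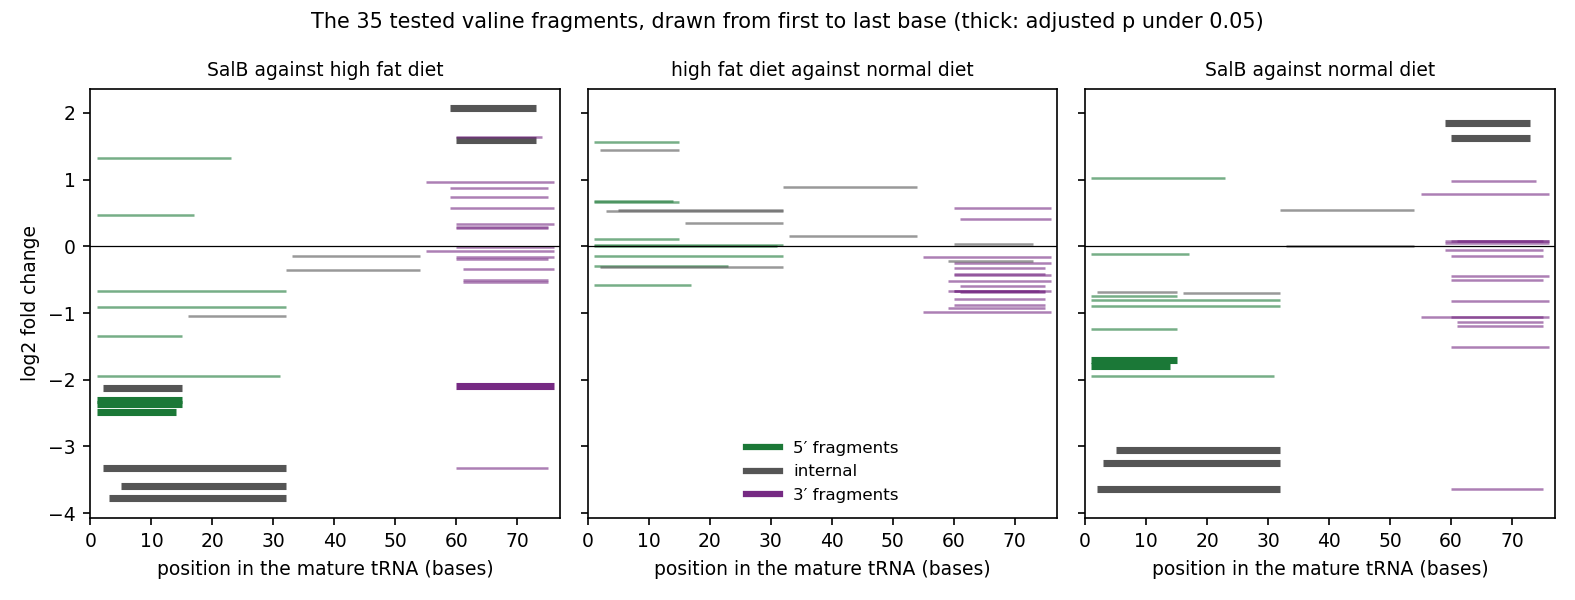
Log2 fold change of the 35 tested valine fragments in each comparison, each drawn from its first to its last base on the mature tRNA; thick bars have an adjusted p under 0.05. In both SalB panels the thick bars below 0 start at bases 1 to 5, apart from that of bases 60 to 76 in the panel against high fat diet, and those above 0 end at base 73; the middle panel has no thick bar.

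Reads across the anticodon tell Val-AAC from Val-CAC, which their ends cannot. In Val-AAC the enzyme pair ADAT2 and ADAT3 deaminates A34 to inosine, which is read as G. Of reads with A or G at base 34 inside the read, G stood in 108 of 108 with SalB, in 145 of 145 on the high fat diet and in 144 of 145 on the normal diet. Val-AAC fragments that hold the anticodon therefore appear as A34G, and the rest of the reads carry the C of Val-CAC apart from 1 read with T. G at base 34 made up 33.98%, 51.8% and 38.5% of reads there in the SalB libraries, 43.7%, 43.4% and 39.6% in the high fat diet libraries and 38.0%, 44.3% and 38.7% in the normal diet libraries, from 70 to 186 reads a library. The groups overlapped, and neither family's share moved beyond the spread between replicates.

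Among these reads the fragment 32 to 54 with A34G, from the anticodon loop to the T arm, had 20, 15 and 19 reads in the SalB libraries, 42, 15 and 18 in the high fat diet libraries and 12, 12 and 23 in the normal diet libraries. Its normalised CPM of 363, 254 and 487 with SalB overlapped the 613, 435 and 327 of the high fat diet (-0.35 ± 0.38, adjusted p = 0.487). The Val-CAC fragment 33 to 54 had 290, 169 and 179 normalised CPM with SalB, against 292, 232 and 182 on the high fat diet (-0.15 ± 0.42, adjusted p = 0.793). Another internal piece, 16 to 32, which follows directly on the 15-base 5′ fragment, had 90.8, 152 and 179 normalised CPM with SalB, against 263, 232 and 346 on the high fat diet. It was not called (-1.04 ± 0.59, adjusted p = 0.185).

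Among the 13 origin sums Val-TAC internal reads were called higher with SalB and no others, where 21.7% of the 166 sums over all tRNAs were. They had 654, 1050 and 717 normalised CPM with SalB, 438, 464 and 327 on the high fat diet and 225, 225 and 300.1 on the normal diet, from 8 to 62 reads a library. The log2 fold change against high fat diet was 0.97 ± 0.31 (adjusted p = 0.0389), but the call ended in 13 of 18 alternatives. These included every omission of a high fat diet library (0.81 to 0.95, adjusted p = 0.111 to 0.173), of a normal diet library (0.88 to 0.97, adjusted p = 0.0594 to 0.0688) and of SalB replicate 2 (0.79, adjusted p = 0.0686), as well as total-read scaling (0.10, adjusted p = 0.88), while the lowest of all was 0.0191. The remaining sums were not called. Their log2 fold changes against high fat diet were -0.60 for internal reads of Val-AAC and Val-CAC, 0.55 for internal reads of Gly-ACC, Val-AAC and Val-CAC, -0.10 for Val-TAC 3′ reads, -0.96 for Val-TAC 5′ reads and 0.57 for 3′ reads of Val-AAC and Val-CAC. The first of these was called lower without SalB replicate 2 (-0.87, adjusted p = 0.0199, with a range over alternatives of 0.0102 to 0.422). Reads of Val-CAC alone gave -0.15 (internal) and 0.07 (5′), those of Val-AAC alone -0.48 and -0.26. By length, 3′ reads of 14 to 24 bases gave 0.07, internal reads of 14 to 24 bases 0.41, of 25 to 27 bases -0.54 and of 37 to 40 bases -0.61, none of them called. The 3′ reads of 14 to 24 bases were called higher without SalB replicate 3 (0.77, adjusted p = 0.0374, where alternatives ran up to 0.99).

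High fat diet against normal diet asks what the diet changes in serum, and no valine fragment was called. Nor was any of the 733 fragments (0.0%), of the 166 origin sums (0.0%) or of the 154 length sums (0.0%) in the limma-voom fit, although 91 of the 733 fragments, 17 of the origin sums and 11 of the length sums had an unadjusted p under 0.05. Of the 35 valine fragments 3 did, and the smallest adjusted p was 0.195. That value belongs to the 15-base 5′ fragment with G15A, at 1240, 782 and 1437 normalised CPM on the high fat diet and 282, 535 and 382 on the normal diet. Its log2 fold change was 1.56 ± 0.37 with no overlap between the groups. Fragment 2 to 15 had 1561, 608 and 982 normalised CPM on the high fat diet, against 282, 225 and 600.2 on the normal diet (1.45 ± 0.55, adjusted p = 0.343), again without overlap.

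Further fragments with the smallest p were the fragment 32 to 54 with A34G (0.89 ± 0.40), the 22-base Val-TAC fragment 55 to 76 (-0.98 ± 0.45) and the 5′ fragment 1 to 15 (0.66 ± 0.31), each with an adjusted p of 0.391. The Val-TAC fragment had 379, 840 and 600.3 normalised CPM on the high fat diet, all below the 958, 1154 and 1282 of the normal diet. The 5′ sum of Gly-ACC, Val-AAC and Val-CAC was higher on the high fat diet in every library, with a log2 fold change of 0.78 ± 0.30, and did not pass (adjusted p = 0.382). Over the 3′ fragments the median log2 fold change was -0.59 with 0 of 17 called, and over the 9 5′ fragments 0.02 with 0 called. The median over all 733 fragments was -0.02. Fragments of other serum tRNAs in the 5′ list had 0 of 105 called and a median of -0.53.

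SalB against normal diet shares its SalB libraries with the first comparison, so its calls add no independent support to it. Called lower were the 5′ fragments 1 to 15 and 1 to 14 and the 3 trimmed long fragments, and called higher were both fragments that stop at base 73. Of those called lower, 1 to 14 and the 3 trimmed long fragments passed the filter through the diet groups alone, where they were high. Fragment 1 to 15 reached the minimum of the filter in all 3 SalB libraries. Fragment 59 to 73 reached it in 3 SalB libraries and in 1 normal diet library. Of the 35 valine fragments, 2 were called higher (5.71%), where 20.9% of all 733 were, and 5 lower (14.3%), where 16.8% of all were. With scaling to total tRNA reads 0 were higher and 19 lower, and without the Leu-CAG precursor reads in the total 2 were higher and 15 lower. Over all 733 fragments, 348 and 339 were called in either direction under these scalings. The 15-base 5′ fragment was 3.24-fold lower (log2 fold change -1.70 ± 0.33, adjusted p = 0.0028) and the call held in all 18 alternatives. Its variant G15A had a difference of -0.74 ± 0.44 and was not called (adjusted p = 0.185), with all SalB libraries below those of the normal diet. Fragment 1 to 14 was called lower (-1.80 ± 0.56, adjusted p = 0.0266), but not without SalB replicate 1 (-1.21, adjusted p = 0.128), SalB replicate 2 (-1.83, adjusted p = 0.0733) or normal diet replicate 3 (-1.62, adjusted p = 0.0552). With only the 6 libraries compared it was -1.76 (adjusted p = 0.0516). Its adjusted p ranged down to 0.00304.

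For the trimmed long fragments the log2 fold changes against normal diet were -3.64 ± 0.69 (adjusted p = 0.00246) for 2 to 32, -3.25 ± 0.77 (adjusted p = 0.00715) for 3 to 32 and -3.05 ± 0.93 (adjusted p = 0.0238) for 5 to 32. Over fragment 3 to 32, 3 SalB reads against 35 on the normal diet gave an 8.99-fold lower ratio with a 95% counting interval of 2.84-fold to 45.7-fold, again without the spread between libraries. Leaving out SalB replicate 1 moved it to -2.61 and SalB replicate 2 to -4.01, and 2 to 32 moved to -2.95 without SalB replicate 3. The call of 5 to 32 ended without SalB replicate 1 (-2.15, adjusted p = 0.119) and SalB replicate 2 (-2.93, adjusted p = 0.0526), moved to -3.76 without SalB replicate 3, and ranged down to 2.1e-06. Internal reads of 28 to 36 bases had -2.29 ± 0.33 (adjusted p = 0.00104) in the only valine length sum called lower, where 9.74% of the 154 were, and no alternative ended the call.

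Fragment 60 to 73 was higher than on the normal diet by 1.63 ± 0.44 on the log2 scale (adjusted p = 0.0142) and fragment 59 to 73 by 1.85 ± 0.51 (adjusted p = 0.0152). Without normal diet replicate 3 these were 1.49 (adjusted p = 0.0519) and 1.5 (adjusted p = 0.0852), and without SalB replicate 3 fragment 59 to 73 moved to 2.47. Total-read scaling gave 0.83 (adjusted p = 0.179) and 1.02 (adjusted p = 0.146), the highest adjusted p of the alternatives, with the lowest at 0.00335 and 0.00113. Both calls also ended with no filter (1.25, adjusted p = 0.124, and 1.35, adjusted p = 0.126). The main 3′ fragment 60 to 76 was not called (-0.44 ± 0.49, adjusted p = 0.484), and its A60C form lay at -1.505 ± 0.65 (adjusted p = 0.0825). That form was called lower in 6 of 17 alternatives, among them without normal diet replicate 3 (-2.45, adjusted p = 0.00303, with a range over alternatives of 0.00205 to 0.227). Without SalB replicate 2 calls were made for the fragment 1 to 32 (-1.80, adjusted p = 0.0182, against -0.81 and 0.33 with it), the fragment 60 to 75 (-1.64, adjusted p = 0.00863, against -1.07 and 0.104) and the Val-TAC fragment 55 to 76 (-1.54, adjusted p = 0.012, against -1.06 and 0.0825), whose highest adjusted p among the alternatives were 0.956, 0.537 and 0.301.

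Among the origin sums, 5′ reads of Gly-ACC, Val-AAC and Val-CAC were lower than on the normal diet (-1.18 ± 0.31, adjusted p = 0.0146), with no other of the 13 called lower, where 9.04% of the 166 were. That call ended without SalB replicate 3 (-0.85, adjusted p = 0.0749), without normal diet replicate 3 (-1.02, adjusted p = 0.0508) and with no filter (-1.54, adjusted p = 0.0537). Its lowest adjusted p was 0.0026. Called higher were 2 sums, where 27.1% of all sums were: internal reads of Val-TAC (1.59 ± 0.32, adjusted p = 0.00462) and of Gly-ACC, Val-AAC and Val-CAC (1.26 ± 0.28, adjusted p = 0.00614). Both calls ended under total-read scaling (0.79, adjusted p = 0.128, and 0.50, adjusted p = 0.29) and with no filter (1.23, adjusted p = 0.113, and 0.89, adjusted p = 0.26). Their lowest adjusted p among the alternatives were 0.003 and 0.00479. The second sum, which holds the fragments without CCA, was 3050, 4506 and 2868 normalised CPM with SalB and 1353, 1295 and 1582 on the normal diet. By length, internal reads of 14 to 24 bases were called higher, at 6735, 10774 and 7093 normalised CPM with SalB, against 4585, 4055 and 4347 on the normal diet (0.89 ± 0.27, adjusted p = 0.0216). This was the single length sum called higher, where 30.5% of the 154 were. Its call ended in 8 of 18 alternatives. Among them was each omission of a normal diet library (0.81 to 0.92, adjusted p = 0.056 to 0.0748). The rest were both total-read scalings, no filter, only the 6 libraries compared and only reads without mismatch. Adjusted p ran from 0.0124 to 0.879, the highest under scaling to total tRNA reads.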

How the data were processed

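Serum RNA was taken with TRIzol, made into libraries with a kit for tRNA fragments that ligates adapters, size-selected by gel and read on a NextSeq 500, per the labels' protocols. The submitters' processing notes name FastQC, cutadapt, Bowtie, edgeR and the build mm10, with neither versions nor roles. The deposited files are alignment lists in which identical reads were collapsed, and the authors wrote each read count into the read name; positions on tRNA references stand as other numbers beside it. Alignments have at most 1 mismatch and reads 14 to 40 bases. With no column of counts in the files, limma-voom was the test set for the counts read from the names, and edgeR was not run here.

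Each read was counted once and read sequences were set against the references by offset. Fragments, sums by family set and origin, and sums by length were each fitted over all tRNAs with limma-voom (limma 3.58.1, R 4.3.3) on 9 libraries, two-sided, with Benjamini-Hochberg adjustment at 0.05. Trimmed-mean scaling (30% of M and 5% of A values trimmed) gave factors of 0.378 (SalB replicate 2) to 1.24. The test was tried on simulated data. Replicates differed by more than sampling noise (chi-square per degree of freedom 2.70 to 48.7), and depth limits every value to steps of 1 read. Shares were compared by exact permutation. Named were up to 12 called fragments per direction and comparison, the 5 smallest p where fewer than 3 were called, the 10 most abundant fragments, the 2 most abundant per origin and all tested sums. Members, lists and alternatives were chosen with earlier results of these data known. The alternatives are given in the closing section.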

Additional observations from a re-analysis of the deposited data

How the results depend on the processing

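Counts of called valine members (SalB against high fat diet, main 10 fragments, 2 origin sums and 1 length sum; SalB against normal diet, main 7, 3 and 2) changed by over 1.5 times in the following settings. Against high fat diet they were 45 fragments, 1 origin sum and 2 length sums with no filter, 4 origin and 2 length sums with total tRNA reads, 2 length sums with total reads without the Leu-CAG precursor, and 1 origin sum with only the 6 libraries compared, with only reads without mismatch, or with the replicate block. With no filter 1845 valine fragments were tested, and 1145 of all 41240 fragments, 27 of all 606 origin sums and 41 of all 716 length sums were called. With total tRNA reads 42 of all 166 origin sums and 35 of all 154 length sums were called, and 42 of all 154 length sums without the precursor. Of all origin sums, 30 of 155 were called with only the 6 libraries compared. With only reads without mismatch 38 of 133 were, and with the replicate block 45 of 166. Against normal diet the valine counts were 38 fragments, 1 origin and 1 length sum with no filter, 19 fragments and 5 origin sums with total tRNA reads, and 17 fragments, 6 origin sums and 1 length sum without the precursor. With no filter 1292 of all 41240 fragments, 39 of all 606 origin sums and 61 of all 716 length sums were called. With total tRNA reads 348 of all 733 fragments and 47 of all 166 origin sums were called, and 339 and 50 without the precursor. Without the precursor 53 of all 154 length sums were called. The valine counts were 3 fragments with 10 reads in at least 6 libraries, 4 fragments and 1 length sum with only the 6 libraries compared, and 1 length sum with only reads without mismatch. In the first 2 of these settings 171 of all 466 and 197 of all 587 fragments were called. Of all length sums, 44 of 143 were called with only the 6 libraries compared and 44 of 116 with only reads without mismatch. High fat diet against normal diet had 0 valine calls throughout, apart from 2 fragments with no filter, where 55 of all 41240 fragments were called. Leaving out 1 library at a time gave 6 to 13 fragments, 1 to 3 origin sums and 1 to 2 length sums against high fat diet, the fewest fragments (0 higher, 6 lower) without high fat diet replicate 1. It gave 5 to 10, 2 to 5 and 1 to 4 against normal diet, and 0 for the diet comparison. Counts over all tRNAs are not given for these omissions, so the ranges describe the valine members only.

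SalB replicate 2 set the sign of a pair of sums against normal diet: without it the 5′ sum of Val-AAC and Val-CAC was -0.84 (adjusted p = 0.0304, highest alternative 0.955) where it was 0.64, with 1.73 as the highest value on leaving out a library, and 5′ reads of 14 to 24 bases were -1.19 (adjusted p = 0.00988, highest alternative 0.996) where they were 0.07, with 1.01 as the highest. The mean valine share of tRNA reads in SalB was 2.74%, and 3.59% without the Leu-CAG precursor reads. Deviations of same-numbered libraries had correlations of -0.297 to 0.161, and 3 libraries a group are too few to settle whether the numbers pair any of them. With the replicate block 12 and 10 of the 35 valine fragments were called against high fat and normal diet, among them all 10 and 7 called without it. Over all tRNAs 275 and 273 of 733 fragments were called with that block. Depth limits the trimmed fragments most, with 3 or 4 SalB reads each over the group.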

Other observations

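Reads on valine tRNA precursors were outside the rule and the tests. Precursor bodies had 66, 108 and 16 reads in the SalB libraries, 35, 23 and 25 in the high fat diet libraries and 9, 20 and 50 in the normal diet libraries. Trailers, the bases that follow the mature 3′ end before CCA is added, had 6, 33 and 2 reads with SalB, 2, 0 and 1 on the high fat diet and 2, 1 and 1 on the normal diet. Leaders had 1, 8 and 1 reads with SalB and 0 in the other 6 libraries. SalB replicate 2, the deepest library, held most of the trailer and leader reads.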
